A study of Mus musculus with 8 samples.

Results

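The phagocyte NADPH oxidase was followed through 6 genes: Ncf4, Ncf1, Cyba and Cybb, which code for oxidase subunits, and Rac1 and Rac2, which code for the Rac GTPases that switch the oxidase on. The members were listed by function around Ncf4, which was selected on its difference between CD44hi and CD44lo arrays, so that contrast is described for them and not tested. Every probe set (the group of probes that reads 1 transcript) whose only gene symbol in the platform annotation was one of the 6 was taken, which gave 9 of the 20380 probe sets that carry 1 symbol. RNA came from established mouse T cell lymphoma lines deficient in Snf5, a core SWI/SNF chromatin remodelling subunit encoded by Smarcb1. Cells had been separated by CD44, an adhesion receptor for hyaluronan, into a CD44hi group (4 arrays) and a CD44lo group (4 arrays). Snf5 deficiency is common to both groups, no drug or time point is given, and the labels name neither the number of lines nor the Cre or promoter behind the deletion. They do not state that replicates were separate cultures, so p-values cover the spread among these arrays alone, and that spread may be technical.

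The oxidase is a membrane heterodimer of gp91phox (Cybb), which carries electrons from NADPH to oxygen, and its stabilising partner p22phox (Cyba). On activation cytosolic subunits, among them p47phox (Ncf1) and p40phox (Ncf4), dock on it together with Rac bound to GTP, and superoxide is released. The complex is best known from neutrophils and macrophages, where it kills ingested microbes, whereas Rac1 and Rac2 also drive the actin cytoskeleton in lymphocytes.

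The sorted marker followed the labels, with Cd44 at a log2 intensity of 11.20 to 11.73 in CD44hi and 4.92 to 5.94 in CD44lo. T cell identity was plain for some markers only: Cd3e was at 13.06 and 13.10, Cd3d at 14.14 and 14.18, Cd247 at 12.86 and 12.83 and Cd8a at 13.86 and 13.87 (means of CD44hi and CD44lo), and Cd3g was at 13.89 to 14.03 over the arrays, whereas Cd4, Cd5 and Thy1 did not exceed 5.44, 4.48 and 4.61 in any array, below the lowest array median of all probe sets (8.32). Smarcb1 was at 6.78 and 6.85, and since it is not known here where its probes lie against the deletion, it checks nothing. As a floor, 27 probe sets for Bacillus transcripts had array medians of 3.95 to 4.12. Within each group array 1 was closest to array 3 (root mean square log2 difference 0.176 in CD44hi, 0.170 in CD44lo) and array 2 to array 4 (0.297 and 0.192), with 0.296 to 0.479 for the other pairs, so values are also given by replicate number. RNA quality was read from Gapdh and Actb controls. The 3' over 5' log2 ratio of Gapdh was 0.760 to 0.877 in CD44hi and 0.650 to 0.730 in CD44lo, without overlap. That of Actb was 0.468 to 0.795 and 0.380 to 0.610, overlapping between groups but higher in CD44hi at all 4 numbers, by 0.088 to 0.184. Its part in the differences below was not tested.

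Of the 6 genes Ncf4 alone had groups that did not overlap. This gene codes for p40phox, the subunit that binds a membrane phosphoinositide on phagosomes and endosomes through its PX domain. Its log2 intensity was 12.75, 12.44, 12.73 and 12.65 in CD44hi replicates 1 to 4, and 9.93, 10.15, 9.99 and 10.28 in CD44lo replicates 1 to 4. Every CD44hi array thus lay more than 2 log2 units above every CD44lo array. The group means were 12.64 ± 0.15 and 10.09 ± 0.16 (SD, n = 4 each), a log2 difference of 2.56 or 5.88-fold. At each replicate number the difference was 2.83, 2.29, 2.74 and 2.37, so it was wider at numbers 1 and 3 (mean 2.78) than at 2 and 4 (mean 2.33). This gene was chosen for this contrast, and its values are a description without a test. For scale, Ncf4 stood at place 22 among 12393 genes ordered by their log2 difference from the top. Among all probe sets with 1 symbol 9.5% had groups that did not overlap, 4.74% with every CD44hi value above and 4.76% with every CD44hi value below. The CD44lo level was itself far from the floor, at least 5.80 log2 units above the control median of its array in all 8 arrays. In RNA of a cell population, fewer cells with a transcript and less transcript per cell cannot be told apart.

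**Figure D1:**
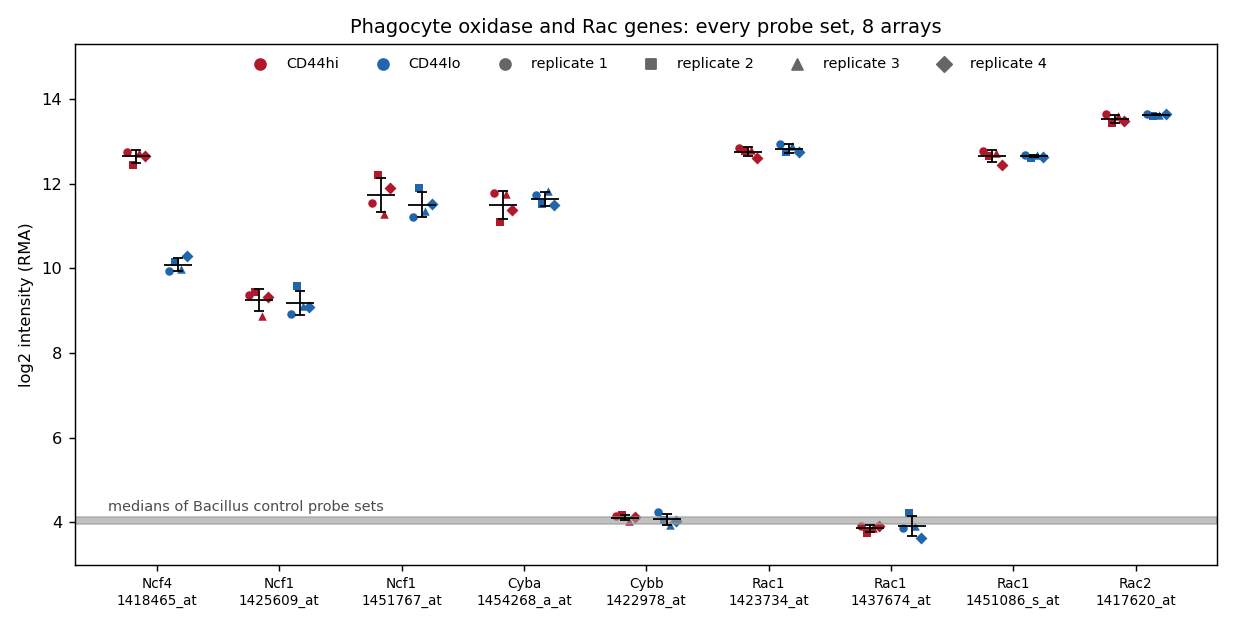
Log2 intensity (vertical axis) of the 9 probe sets of the oxidase and Rac genes (horizontal axis) in 4 CD44hi (red) and 4 CD44lo (blue) arrays; symbols mark the replicate number, black lines the mean ± SD, and the grey band the array medians of 27 Bacillus control probe sets (3.95 to 4.12). Ncf4 separates the groups (12.64 against 10.09), the other 8 probe sets overlap, and Cybb and 1 Rac1 probe set lie at the control level.

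Ncf1 codes for p47phox, the organiser that is phosphorylated on activation and carries the cytosolic complex to the membrane. With its brighter probe set (1451767_at) CD44hi arrays 1 to 4 were at 11.55, 12.21, 11.29 and 11.91, and CD44lo arrays 1 to 4 at 11.22, 11.90, 11.36 and 11.53. The groups overlapped, with a log2 difference of 0.23 against SDs of 0.40 and 0.30 (n = 4 each). By replicate number 1 to 4 the difference was 0.33, 0.31, -0.07 and 0.38. The larger spread was between replicate numbers: arrays 2 and 4 exceeded arrays 1 and 3 by 0.64 in CD44hi and 0.43 in CD44lo, on average. The dimmer Ncf1 probe set (1425609_at) ranged from 8.86 to 9.57 over the 8 arrays and differed by 0.08. At single replicate numbers it differed by 0.46, -0.13, -0.24 and 0.22, that is in both directions.

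The membrane subunits stood at opposite ends of the scale. Cyba was at 11.78, 11.09, 11.76 and 11.39 in CD44hi replicates 1 to 4 and at 11.73, 11.51, 11.82 and 11.49 in CD44lo. Its groups overlapped, with a mean difference of -0.14, and here arrays 2 and 4 were the lower ones, by 0.53 in CD44hi and 0.28 in CD44lo. Cybb, the catalytic subunit, was at 4.14, 4.16, 4.03 and 4.11 in CD44hi and at 4.23, 4.06, 3.94 and 4.03 in CD44lo. All 8 Cybb values lay within 0.16 log2 units of the Bacillus control median of their array, so the array gave no sign of a Cybb transcript above the floor in either group. A probe set that fails to bind its transcript would read the same, and no other Cybb probe set carries that single symbol.

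Promoter sequences are printed for Cybb and Cyba because the pair forms 1 heterodimer while only Cyba read above the floor. They are from RefSeq (build GRCm38.p6), whose table holds 3 of the 6 members (Ncf1, Cyba and Cybb). Both genes lie on the minus strand, and the stretches are the 250 bases before the start, at chrX:9469325-9469574 for Cybb and chr8:122432941-122433190 for Cyba. The last line gives 30 bases around the start of Cybb (chrX:9469298-9469327). Capitals mark matches on either strand to 3 motifs, of which none overlap: GAGGAA, 1 form of the PU.1 site, AGATAA for GATA factors and TGANTCA for AP-1. Other forms of these sites were not searched for, so small letters do not mean that a site is absent.
Cybb, 250 bases before the start: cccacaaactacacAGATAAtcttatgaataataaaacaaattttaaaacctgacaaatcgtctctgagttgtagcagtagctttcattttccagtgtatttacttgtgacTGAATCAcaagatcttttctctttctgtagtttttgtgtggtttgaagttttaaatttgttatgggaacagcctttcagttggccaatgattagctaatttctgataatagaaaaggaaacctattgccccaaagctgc
Cyba, 250 bases before the start: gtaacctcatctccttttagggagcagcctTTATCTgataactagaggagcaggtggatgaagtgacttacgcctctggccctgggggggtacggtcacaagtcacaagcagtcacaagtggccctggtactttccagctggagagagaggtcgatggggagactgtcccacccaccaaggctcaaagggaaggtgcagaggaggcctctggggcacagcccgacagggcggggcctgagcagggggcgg
Cybb, 30 bases at the start: tgctgttttcatTTCCTCatcagaagaaga
Over all 32851 promoters of 300 bases in the table, 28.3% hold the GAGGAA letters, 11.2% the GATA letters and 7.81% the AP-1 letters. Cybb holds the first of these just after its start, on the other strand, as well as 1 GATA and 1 AP-1 match, Cyba 1 GATA match, and Ncf1 none of the 3 motifs. The matches are descriptions of letters, not of binding. The transcript of PU.1 itself (Spi1) was at 5.63 ± 0.32 in CD44hi, against 5.66 ± 0.16 (SD, n = 4 each).

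The Rac genes were bright and close together. Rac2, the isoform of blood cells, was at 13.64, 13.44, 13.59 and 13.47 in CD44hi replicates 1 to 4, and at 13.64, 13.60, 13.63 and 13.64 in CD44lo. The CD44lo arrays were tightly grouped (SD 0.02), the CD44hi arrays less so (SD 0.09), and the groups overlapped through replicate 1. The mean difference of -0.09 amounts to a CD44hi level lower by 6.14%, and came mostly from numbers 2 and 4 (-0.16 against -0.02 at 1 and 3). Rac1, the isoform found in most cells, was at 12.84, 12.77, 12.80 and 12.60 in CD44hi and at 12.93, 12.74, 12.89 and 12.74 in CD44lo with probe set 1423734_at, a difference of -0.07. With 1451086_s_at it differed by -0.01, between 12.44 and 12.76 over the 8 arrays. The remaining Rac1 probe set (1437674_at) read 3.64 to 4.21, at the control level, and carries no information on Rac1. The close paralogs of the Rac family can share probe sequence, so how far each probe set is specific is not known here.

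Over the 6 genes, each read by its brightest probe set, the median log2 difference was -0.01, and over all 12393 genes it was -5.86e-05. Leaving Ncf4 aside, the other 8 probe sets differed by -0.14 to 0.23.

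**Figure D2:**
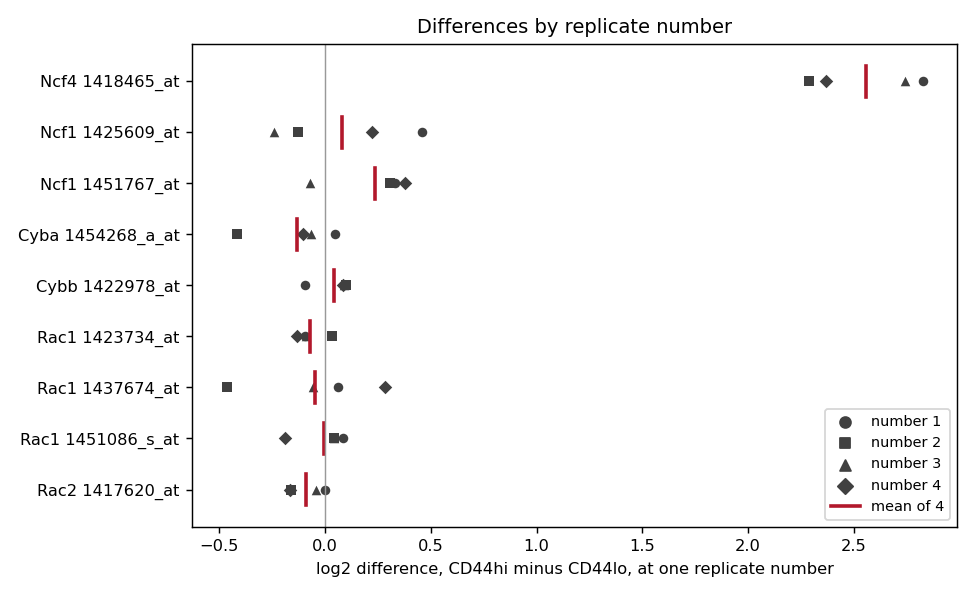
Log2 difference CD44hi minus CD44lo (horizontal axis) of each probe set (vertical axis) at replicate numbers 1 to 4 (symbols) with their mean (red bar). Ncf4 lies between 2.29 and 2.83 at every number, while the means of the other probe sets lie between -0.14 and 0.23.

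Partners of the oxidase that the list of members leaves out held no call. Of 12 such genes 7 were measured, and 0 passed limma's test across all genes (Benjamini-Hochberg adjusted p under 0.05), 0 having an unadjusted p under 0.05. Over all genes 3.81% passed. The median difference of the 7 was -0.07. The 4 measured genes of related oxidases (Nox4, Noxo1, Duoxa1 and Duoxa2) had both group means below the lowest array median of all probe sets (8.32). Among them Cybc1, a chaperone needed for the heterodimer, was at 11.02 and 11.09 in CD44hi and CD44lo, Rap1a, a small GTPase found with the heterodimer, at 12.92 and 12.99, and Hvcn1, the proton channel that balances charge during superoxide production, at 9.52 and 9.53. Nox4, a relative of Cybb that needs no cytosolic subunit, was low at 4.49 and 4.73.

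Enzymes that act upstream of the cytosolic subunits moved in both directions. Of 18 measured kinases and lipid enzymes 3 rose and 1 fell (22.2%, against 3.81% over all genes), with a list median of -0.02. The pathway lists were chosen with earlier results of these data known, so their shares are descriptions. Pik3r4, the regulatory subunit of the lipid kinase complex that makes the phosphoinositide bound by p40phox, rose from 10.57 ± 0.14 to 11.32 ± 0.29 (log2 difference 0.75, SE 0.14, n = 4 each, limma adjusted p = 0.0222). Its catalytic partner Pik3c3 was at 12.05 and 12.07 and did not pass. Protein kinase C isoforms, which phosphorylate p47phox, were split. Prkcb rose by 0.64 (SE 0.07, limma adjusted p = 0.0011) and Prkce by 0.83, while Prkcz fell by 0.42. Their other probe sets differed by 0.58, 0.86 and -0.32, that of Prkcz with overlapping groups. Without 1 array at a time, Prkcb passed in all 8 fits. Prkce lost the call in 7 of 8 fits (all but that without CD44hi replicate 4), Prkcz in 6 (all but CD44hi 3 and 4) and Pik3r4 in 5 (CD44hi 2 or 3, CD44lo 1, 3 or 4), with limma adjusted p up to 0.142, 0.104 and 0.0747.

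Exchange factors, which load Rac with GTP, and the Elmo adaptors listed with them were the other group with several changes. Of 15 measured 2 rose and 2 fell (26.7%, against 3.81% over all genes), with a median difference of -0.01. Trio was at 8.31, 9.01, 8.23 and 7.81 in CD44hi replicates 1 to 4 and at 6.30, 6.87, 6.19 and 6.68 in CD44lo, without overlap. It rose by 1.83 (SE 0.25, limma adjusted p = 0.0034), or 3.55-fold, and its other probe set by 1.76. Vav3 was at 8.01, 7.58, 7.97 and 7.62 against 6.34, 6.44, 6.49 and 6.53, again with all CD44hi arrays above, and rose by 1.35 (SE 0.12, limma adjusted p = 2.11e-04). Its other probe sets differed by 1.37 and 0.21. In the opposite direction went Vav1, the Vav protein that couples the T cell receptor to Rac, at 10.06, 10.28, 10.21 and 10.85 in CD44hi, against 11.11, 11.20, 11.12 and 11.35 in CD44lo. It fell by 0.85 (SE 0.16, limma adjusted p = 0.0197), a call lost in 6 of 8 fits without 1 array (CD44hi 2 or 3, or any CD44lo array; limma adjusted p up to 0.0717). Tiam1, a T cell lymphoma invasion gene by name and a Rac exchange factor, fell from 12.44 ± 0.08 to 11.91 ± 0.08 (log2 difference -0.53, SE 0.08, n = 4 each, limma adjusted p = 0.0048), and its dim second probe set differed by -0.08.

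Inhibitors and actin effectors of Rac showed no call. Of 9 Rac inhibitors (GTPase-activating proteins and Arhgdib) 0 passed with limma and 1 had an unadjusted p under 0.05 (median 0.12). With the replicate number as a block Abr was called as higher (0.45, limma adjusted p = 0.0345) and Arhgap9 as lower (-0.39, limma adjusted p = 0.0404). Of 12 actin effectors of Rac, such as the WAVE complex genes, 0 passed with limma and 1 had an unadjusted p under 0.05 (median -0.03).

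Genes that dispose of superoxide and peroxide showed no call. Of 26 measured, 0 passed with limma and 2 had an unadjusted p under 0.05, with a median difference of -0.04. Superoxide dismutases Sod1 and Sod2 were at 14.25 and 14.30 and at 11.87 and 12.05, and catalase (Cat) at 11.63 and 11.73, in CD44hi and CD44lo. With the block Hmox1, which codes for haem oxygenase, was called as higher (0.82, limma adjusted p = 0.0400). Of 9 measured genes that supply NADPH, in any part of the cell, 1 rose (11.1%, against 3.81% over all genes), with a median of -0.08. Idh2, the isocitrate dehydrogenase that makes NADPH inside mitochondria, rose by 0.69 (SE 0.13, limma adjusted p = 0.0177). Its call was lost without CD44lo replicate 1 or 3 (limma adjusted p up to 0.0635).

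Of 12 measured transcription factors known to act on oxidase genes 1 rose (8.33%, against 3.81% over all genes), with a median of 0.07. Cebpa, a myeloid factor, rose from 7.96 ± 0.04 to 8.48 ± 0.10 (log2 difference 0.52, SE 0.08, n = 4 each, limma adjusted p = 0.0052). Spi1 and Irf8 did not pass, the latter being at 5.89 and 5.49. With the block Hoxa10 was called as lower (-0.69, limma adjusted p = 0.0061).

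In all, 108 genes of these pathway lists were measured beside the members, and 7 rose and 3 fell (9.26%; 2.03% and 1.78% of all genes rose and fell). With the block 9 rose and 5 fell (3.08% and 3.11% of all genes). As the lists were chosen with earlier results known, these shares test nothing about the lists. The count of rises was 4 without CD44lo replicate 1 or 3, and the count of falls was 1 without CD44hi replicate 2 or without any 1 of the CD44lo arrays. With arrays 2 and 4 alone Cebpa, Prkcz, Tiam1, Trio and Vav1 lost their call (limma adjusted p = 0.0605, 0.183, 0.116, 0.0772 and 0.141), and with arrays 1 and 3 alone Pik3r4 did (limma adjusted p = 0.0632).

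**Figure D3:**
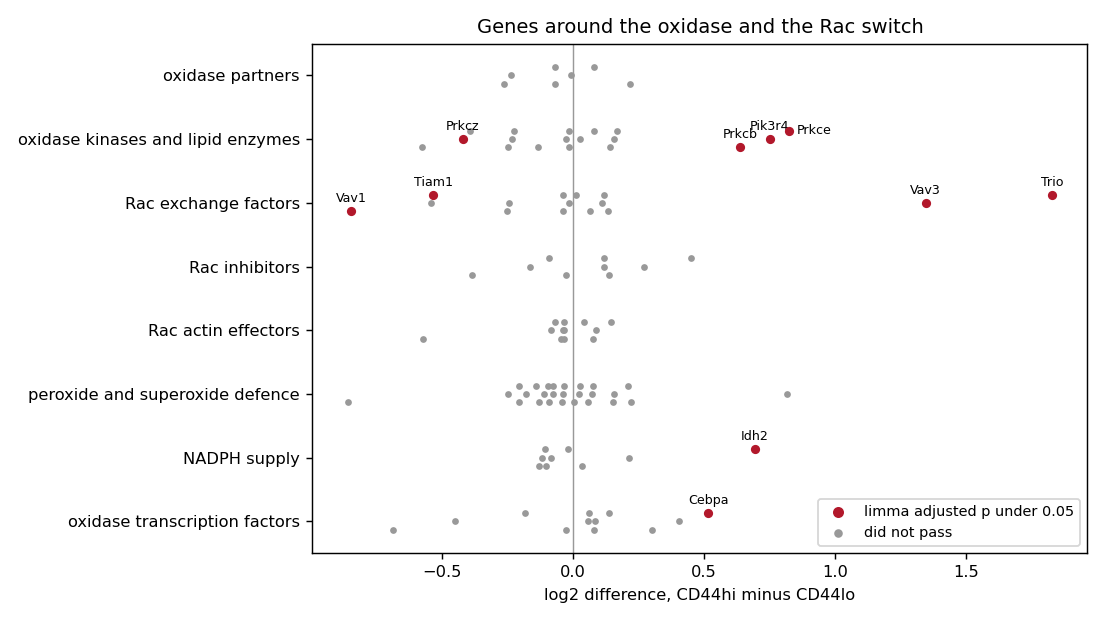
Log2 difference CD44hi minus CD44lo (horizontal axis) of 108 measured genes in 8 lists around the oxidase and Rac (vertical axis, points spread vertically for sight only). Red points passed limma at an adjusted p under 0.05: 7 lie above 0, up to Trio at 1.83, and 3 below 0, down to Vav1 at -0.85.

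Phagocyte oxidase genes are also expressed by macrophages, neutrophils, dendritic cells and B cells, so their markers were read in the same arrays. Of 22 phagocyte markers 0 passed with limma and 2 had an unadjusted p under 0.05, with a median difference of 0.06. The macrophage genes Lyz2, Csf1r and Adgre1 were at 5.30, 5.51 and 4.23 in CD44hi and at 5.04, 5.44 and 4.45 in CD44lo. Lyz1, a lysozyme gene best known from Paneth cells, was at 5.30 and 4.87, and Itgam, shared by several myeloid cells and natural killer cells, at 4.36 and 4.31. The summed linear intensity of the 22 was 1998, 5256, 2311 and 5952 in CD44hi replicates 1 to 4 and 1799, 3802, 1895 and 3808 in CD44lo. The groups overlapped, and CD44hi was higher at all 4 numbers. Cd68 and Fcgr2b were its only members with a mean above the lowest array median of all probe sets, and both ran with replicate number: Cd68 was at 8.01, 10.23, 8.20 and 10.29 in CD44hi replicates 1 to 4, against 8.20, 9.75, 8.23 and 9.76 in CD44lo. With the block Fcgr2b was called as higher in CD44hi (0.57, limma adjusted p = 0.0171).

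Of 9 B cell markers 0 passed with limma and 2 had an unadjusted p under 0.05. Cd79a was at 5.32 and 5.49, Cd79b at 4.96 and 4.75, and Ms4a1 at 4.99 and 3.68, without passing (limma adjusted p = 0.0961). Vpreb1, part of the surrogate light chain of early B cells, was at 7.86 and 7.26 (limma adjusted p = 0.0785). For Ms4a1 and Vpreb1 all CD44hi arrays lay above all CD44lo arrays, which held for 4.74% of all probe sets with 1 symbol. Of 8 dendritic cell markers 0 passed and 1 had an unadjusted p under 0.05, with Itgax at 4.64 and 4.62, Flt3 at 4.94 and 5.03, Zbtb46 at 6.02 and 6.19 and Xcr1 at 4.13 and 4.33. Batf3 was at 6.19 and 5.83, higher in CD44hi without overlap (limma adjusted p = 0.182), Cd74 at 7.10 and 6.68 and H2-Aa at 5.66 and 5.44, both overlapping between groups. Of 4 natural killer cell markers and 11 T cell markers 0 passed, and 0 had an unadjusted p under 0.05. Ncr1, which defines natural killer cells, was at 4.27 and 4.04, and Klra8 at 4.16 and 4.06. Summed linear intensities were higher in CD44hi without overlap for B cell markers (502 to 708 against 444 to 481), dendritic cell markers (511 to 545 against 456 to 498) and natural killer cell markers (94.1 to 101 against 72.7 to 92.2). That of T cell markers overlapped (75690 to 78050 against 76859 to 79305). Such sums weigh bright genes most, here Vpreb1 for B cells, and Cd74 and H2-Ab1 (6.75 and 6.92) for dendritic cells. The B cell and dendritic cell lists also held genes lower in CD44hi, such as Cd79a and H2-Ab1. The measured natural killer cell markers all had higher means in CD44hi, by 0.10 to 0.23. Of the 4 natural killer cell markers 2 stayed under 1 log2 unit above the control median in every array. The part of other cells in the Ncf4 difference was not tested.

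Position was not used in the choice of members, but the stretch read here is centred on Ncf4, which was selected on this contrast. The share of its neighbours that passed is therefore a description. Ncf4 and Rac2 are neighbours in the RefSeq table (assembly GRCm38.p6), with 10 protein-coding genes between them. Of the 12 protein-coding genes on each side of Ncf4, 14 were measured beside Rac2. Of these, 2 rose and 0 fell with limma (14.3%; 3.81% over all genes), 4 had an unadjusted p under 0.05, and the median difference was 0.08. Txn2 is in this list and in that of peroxide defence. Both rises lay between Ncf4 and Rac2.

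Kctd17, the sixth gene from Ncf4 and an adaptor of a cullin ubiquitin ligase, was at 9.52, 8.84, 9.51 and 9.53 in CD44hi replicates 1 to 4 and at 6.62, 6.75, 6.83 and 6.50 in CD44lo. All CD44hi arrays lay above all CD44lo arrays, by a log2 difference of 2.68 (SE 0.16, limma adjusted p = 2.88e-05), or 6.40-fold. C1qtnf6, the ninth gene, which codes for a secreted protein related to complement C1q, was at 11.67, 11.67, 11.79 and 12.06 against 11.19, 10.89, 11.20 and 11.01. It rose by 0.73 (SE 0.11, limma adjusted p = 0.0080), again without overlap. Both kept their call in all 8 fits without 1 array.

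The measured genes that separate these 3 did not pass, and Tex33 and Tmprss6 were not measured. Directly beside Ncf4, the cytokine receptor genes Csf2rb2 and Csf2rb were at 4.61 and 4.32 and at 6.16 and 5.77 (limma adjusted p = 0.410 and 0.152), and Pvalb on the other side at 5.29 and 5.20. Tst and Mpst, which code for sulphurtransferases, were at 9.02 and 8.76 and at 10.45 and 10.70. Il2rb, a bright interleukin receptor gene between Kctd17 and C1qtnf6, was at 13.11 and 13.27 (limma adjusted p = 0.815), and Sstr3, next to Rac2, at 6.90 and 6.70.

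**Figure D4:**
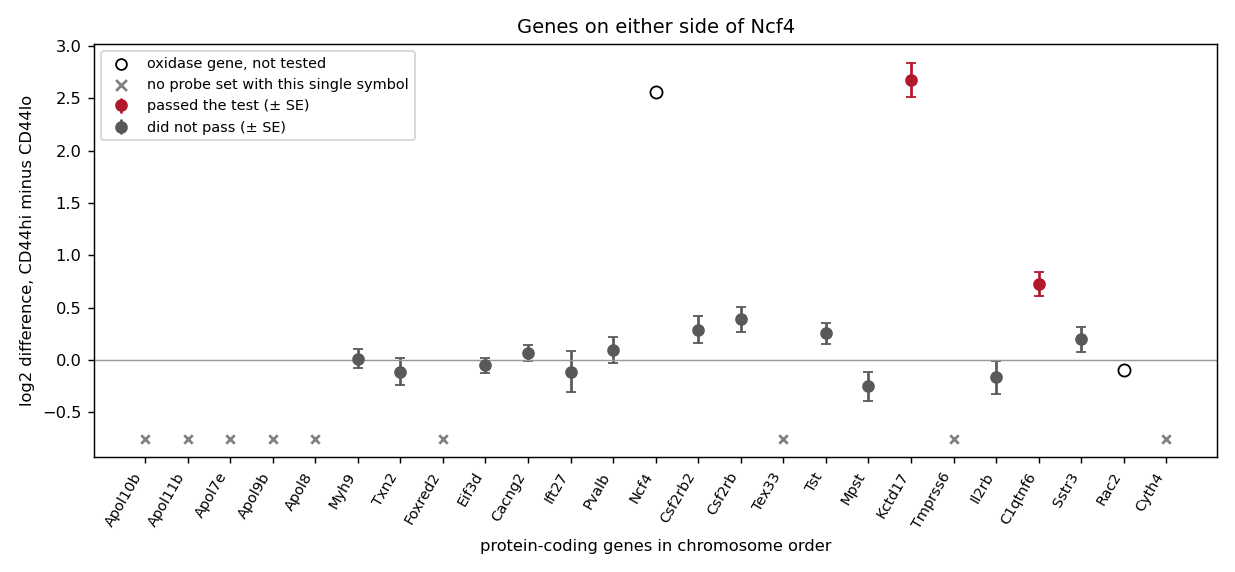
Log2 difference CD44hi minus CD44lo (vertical axis, bars ± SE) for the 12 protein-coding genes on each side of Ncf4 in chromosome order (horizontal axis, equal spacing). Kctd17 (2.68) and C1qtnf6 (0.73) passed the test, the other 12 tested genes did not; open circles are Ncf4 (2.56) and Rac2 (-0.09), which were not tested, and crosses are genes with no probe set of that single symbol.

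Likeness to Ncf4 was measured by the root mean square difference of log2 intensity over the 8 arrays, after each gene's own mean was subtracted. The nearest gene was Ddc, which codes for an aromatic amino acid decarboxylase, at 0.148, with 7.69 ± 0.19 in CD44hi against 5.08 ± 0.29 (SD, n = 4 each). Next came the neighbour Kctd17 at 0.215, the receptor phosphatase gene Ptprg at 0.230, the chemokine receptor gene Ccr9 at 0.246 and the galectin gene Lgals9 at 0.259. Their log2 differences were 2.68, 2.24, 2.35 and 2.19. The measure uses the same contrast as the choice of Ncf4 and is a description of shared pattern over 8 arrays.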

How the data were processed

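Total RNA of 8 samples was measured on 1-colour Affymetrix arrays (Mouse 430A 2.0), and the authors made the deposited intensity values with RMA, per the labels' protocols; its version and options are not given in the sources used. The deposited intensities ranged from 7.61 to 36128, so they were read as linear and log2 was taken without a pseudocount. RMA compresses differences near background, and the number of arrays limits precision.

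Groups and replicate numbers came from titles. Of 22690 probe sets 64 are controls, 20380 carry 1 symbol in the platform annotation, 691 several and 1555 none. For each of 12393 genes the brightest probe set by its mean over 8 arrays was used. The comparison of groups used limma 3.58.1 (lmFit and eBayes, in R 4.3.3), without covariates, with Benjamini-Hochberg adjustment over all genes. It was run on simulated data with independent noise in each array. That cannot check the fit under the likeness of arrays by replicate number seen here. The members, lists and motifs were chosen with earlier results of these data known. Named were all member probe sets, Cd44, Smarcb1, Cd3e, Cd8a and Cd4, called list and neighbour genes, the first 4 markers of each list where measured and the 5 genes most like Ncf4; other list genes were picked with their values in view. 1 gene and 1 gene list are not reported here.

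Both groups use replicate numbers 1 to 4. After subtracting group means, same-numbered arrays had correlations across genes of 0.574, 0.404, 0.533 and 0.531, all above the 0.1 required. The numbers were thus used as pairs for differences by number and for the block, whereas the main fit left them out. The pairing comes from the values. Crossed arrays passed the 0.1 too: CD44hi 1 with CD44lo 3 (0.521), 3 with 1 (0.471), 2 with 4 (0.372) and 4 with 2 (0.458). These correlations therefore cannot tell pairs by number from a likeness of 1 with 3 and of 2 with 4. Alternatives were other normalizations, a filter on dim genes, another probe set choice, other variance models, the block, arrays left out, and subsets by number.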

Additional observations from a re-analysis of the deposited data

Results flagged for a closer look

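Among 42 sets of 4 replicate values, 3 held an array that stood apart from its group, where chance gives about 1 in 20 for independent values. CD44lo replicate 2 had the lowest Rac2 value, 13.60, against 13.63 to 13.64 in its group. CD44lo replicate 1 had the lowest Prkcb value, 12.40, against 12.48 to 12.49. CD44hi replicate 2 had the lowest Kctd17 value, 8.84, against 9.51 to 9.53, and without that array Kctd17 differed by 2.85 (limma adjusted p = 1.10e-05; 1.59e-06 to 0.0051 over all 17 alternatives).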

How the results depend on the processing

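The Ncf4 difference was 2.33 to 2.78 over 12 alternatives, the extremes being numbers 2 and 4 alone and numbers 1 and 3 alone. Of 110 values of the 9 member probe sets under alternatives, 106 moved by less than 1 SD; the other 4 were those of Ncf4 and Rac2 by number. Against 252 higher and 220 lower genes, array weights gave 403 and 418, the replicate block 382 and 385, and numbers 1 and 3 alone 422 and 450. Without 1 array the lower genes numbered 127 to 226, with 128, 142, 127 and 149 without CD44lo replicate 2, 3, 4 and 1. Pathway genes were 4 to 7 higher and 1 to 4 lower without 1 array, against 7 and 3, and 6 were lower with array weights, 5 with the replicate block and 5 with numbers 1 and 3 alone. Of the genes near Ncf4, 4 were higher with numbers 1 and 3 alone, against 2. Of 204 values of 12 called genes, 171 kept the call, 33 lost it and 0 reversed. The replicate block ended no call of these 12 genes; the calls it added stand beside the results. Causes were not tested. Signals near the control level, as for Cybb, limit what differences can be seen.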
